A study of Mus musculus with 2 samples.

Results

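The 9 genes followed here were taken as a set for precursors of hematopoietic stem cells (pre-HSCs). They are Hlf, Mecom, Mycn and Procr, together with Adgrg1, Angpt1, Nrgn, Pla2g4a and Dok2. The paper names Hlf, Mycn and Adgrg1 among signature genes of hemogenic endothelium primed for stem cells and of pre-HSCs. All 9 were followed in CD31+CD44+ cells of the mouse embryo. They are 9 of the 24543 genes listed in the count tables, and all 9 had a row there. They were chosen by name with their levels in these cells already known, so their levels across cell groups are described below without a test, and tests were made of the genotype alone.

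In the embryonic aorta, hematopoietic stem and progenitor cells arise from arterial endothelium through hemogenic endothelial cells, in a process named endothelial-to-hematopoietic transition (EHT). A cell on this path loses arterial genes such as Gja5, passes through a state marked by Gfi1 and Neurl3, and gains blood genes such as Ptprc (CD45) and Myb. Genes of pre-HSC identity are of interest because the same region also holds blood cells that came from earlier waves and do not give rise to stem cells.

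The cells came from the caudal region of embryos at embryonic day 10 on a C57BL/6 background. The cKO embryos were Vec-Cre;Nupr1 fl/fl, in which the endothelial Cdh5 promoter drives Cre and Nupr1, a stress-induced nuclear protein, is deleted from the endothelial cell stage on, so that blood cells descended from that endothelium carry the deletion too. The controls were littermates, Nupr1 fl/fl or Nupr1 fl/+, whose cells carry the hashtag label WT. Sorted CD31+CD44+ cells of both genotypes were marked with hashtag oligos, pooled and sequenced as 1 droplet library for each of 2 replicates. The labels do not say how many embryos entered a pool.

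Replicate 1 held 678 cells and 32430285 UMIs (unique molecular identifiers, each standing for 1 captured RNA molecule), and replicate 2 held 1461 cells and 91511039 UMIs. The 2 replicates shared 0 cell barcodes. Cells were grouped by marker gene UMIs alone, and none of the 9 genes took part in the grouping. The gates were Gja5 (arterial, 366 cells), Kitl with Esm1 (vascular plexus, 110 cells), Gfi1 with Neurl3 (EHT, 234 cells), Ptprc with Myb (97 cells), Mpo with Fcgr3 (myeloid, 154 cells), Gp9 (megakaryocyte, 206 cells) and Mrc1 with C1qb (macrophage, 552 cells). The other 420 cells were placed in no gate. Of these, 5 met several gates but were left out because they held C1qb without Mrc1. Of the 234 EHT cells, 145 also met the arterial or the Ptprc with Myb gate and were counted as EHT cells. Of the 110 plexus cells, 70 also met the arterial gate and were counted as plexus cells, so these 2 gates are not separate cell types. In each gate the UMIs were summed per genotype and replicate, and a level is given as CPM, the UMIs of a gene per 1000000 UMIs of that sum. The megakaryocyte gate had 4 control and 0 cKO cells in replicate 1, so only its replicate 2 sums are used.

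Gate names were checked against marker genes. The count of markers highest in their own gate was 9 of 11 for arterial, 5 of 6 for plexus, 4 of 5 for EHT, 6 of 6 for myeloid, 7 of 7 for megakaryocyte and 7 of 7 for macrophage markers. These lists include the genes that set each gate, whose high level there largely follows from the rule, so the check is partial. Among EHT markers outside the rule, Runx1 and Kit were highest in the EHT gate and Spi1 in the macrophage gate. For the Ptprc with Myb gate it was 0 of 6, because Ptprc, Myb, Spn, Rac2, Coro1a and Ikzf1 were all higher in another gate, so that gate is called here by its rule and by no cell type. Median UMIs per cell ran from 23785 in the arterial gate to 88249 in the myeloid gate, with 54044 in the EHT gate, and CPM takes the depth of a sum into account.

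The members lie on 9 chromosomes of GRCm38, in GENCODE M21. The transcription factor genes are Hlf at chr11:90336536-90390895, Mecom at chr3:29951296-30548008 and Mycn at chr12:12936093-12941914, all on the minus strand. Procr lies at chr2:155751117-155755471 on the plus strand and Adgrg1 at chr8:94974751-95014217 on the plus strand. Angpt1 lies at chr15:42424723-42676977, Nrgn at chr9:37544492-37552904 and Pla2g4a at chr1:149829618-149961290, on the minus strand, and Dok2 lies at chr14:70766036-70778495 on the plus strand. Mecom overlaps an antisense gene, Mecomos, and Dok2 overlaps Xpo7 on the other strand.

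The sequence before the start of 3 members with different patterns is shown, for Hlf and Mycn, which were highest in the EHT gate, and for Procr, which was high in the arterial and EHT gates. RefSeq promoter sequences on GRCm38.p6 matched 7 of the 9 members (Angpt1 and Dok2 had no entry), with 10 start sites. The windows below, 5′ to 3′ on the strand of the gene, are chr11:90390918-90391167 (minus strand), chr12:12941915-12942086 (minus strand) and chr2:155750967-155751116 (plus strand), and no base of them lies within the annotated gene. Capitals mark a cyclic AMP response element (TGACGTCA) in Hlf and an AP-1 motif (TGANTCA) in Procr.
Hlf: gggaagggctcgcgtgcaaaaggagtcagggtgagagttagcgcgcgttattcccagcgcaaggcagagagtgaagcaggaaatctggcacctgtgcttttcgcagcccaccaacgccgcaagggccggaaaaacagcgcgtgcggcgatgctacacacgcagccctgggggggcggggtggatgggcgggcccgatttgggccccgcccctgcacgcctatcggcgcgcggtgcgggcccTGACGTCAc
Mycn: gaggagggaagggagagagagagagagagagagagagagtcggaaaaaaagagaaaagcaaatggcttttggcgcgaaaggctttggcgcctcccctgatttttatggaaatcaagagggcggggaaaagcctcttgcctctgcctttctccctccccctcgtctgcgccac
Procr: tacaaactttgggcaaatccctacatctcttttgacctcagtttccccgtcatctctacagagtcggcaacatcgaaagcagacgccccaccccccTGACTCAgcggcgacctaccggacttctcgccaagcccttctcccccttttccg
Motifs were searched on both strands in the 250 bases before each start, first 5 motifs of blood and endothelial factors. The ETS motif AGGAAG was found in 1 of the 10 member windows, at a start of Pla2g4a, and in 29.5% of 32851 promoters. The remaining motifs were found in 0 of 10 windows, against 14.0% of all promoters for TGTGGT (RUNX), 9.99% for the motif of GATA factors, AGATAA, 6.02% for the Myc E-box CACGTG and 2.06% for TTACNTAA, the motif of Hlf and its relatives. The 2 motifs in capitals were added only after the member sequences had been read and these 5 had given 1 match, so their presence in the members is no finding. TGACGTCA was in 1 of 10 windows (Hlf, 9 bases before the start) and in 1.55% of all promoters, and TGANTCA was in 2 of 10 (Procr and Adgrg1) and in 6.75%. A match describes these letters only, and no match says nothing about binding elsewhere.

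The 9 genes did not share a single pattern. Hlf and Mycn were highest in EHT cells, Mecom and Procr extended into endothelium, Adgrg1 and Angpt1 extended into several blood gates, and Nrgn, Pla2g4a and Dok2 were highest in megakaryocytes. By mean CPM, 4 of the 9 had their highest level in the EHT gate (Hlf, Mycn, Adgrg1 and Angpt1).

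**Figure D1:**
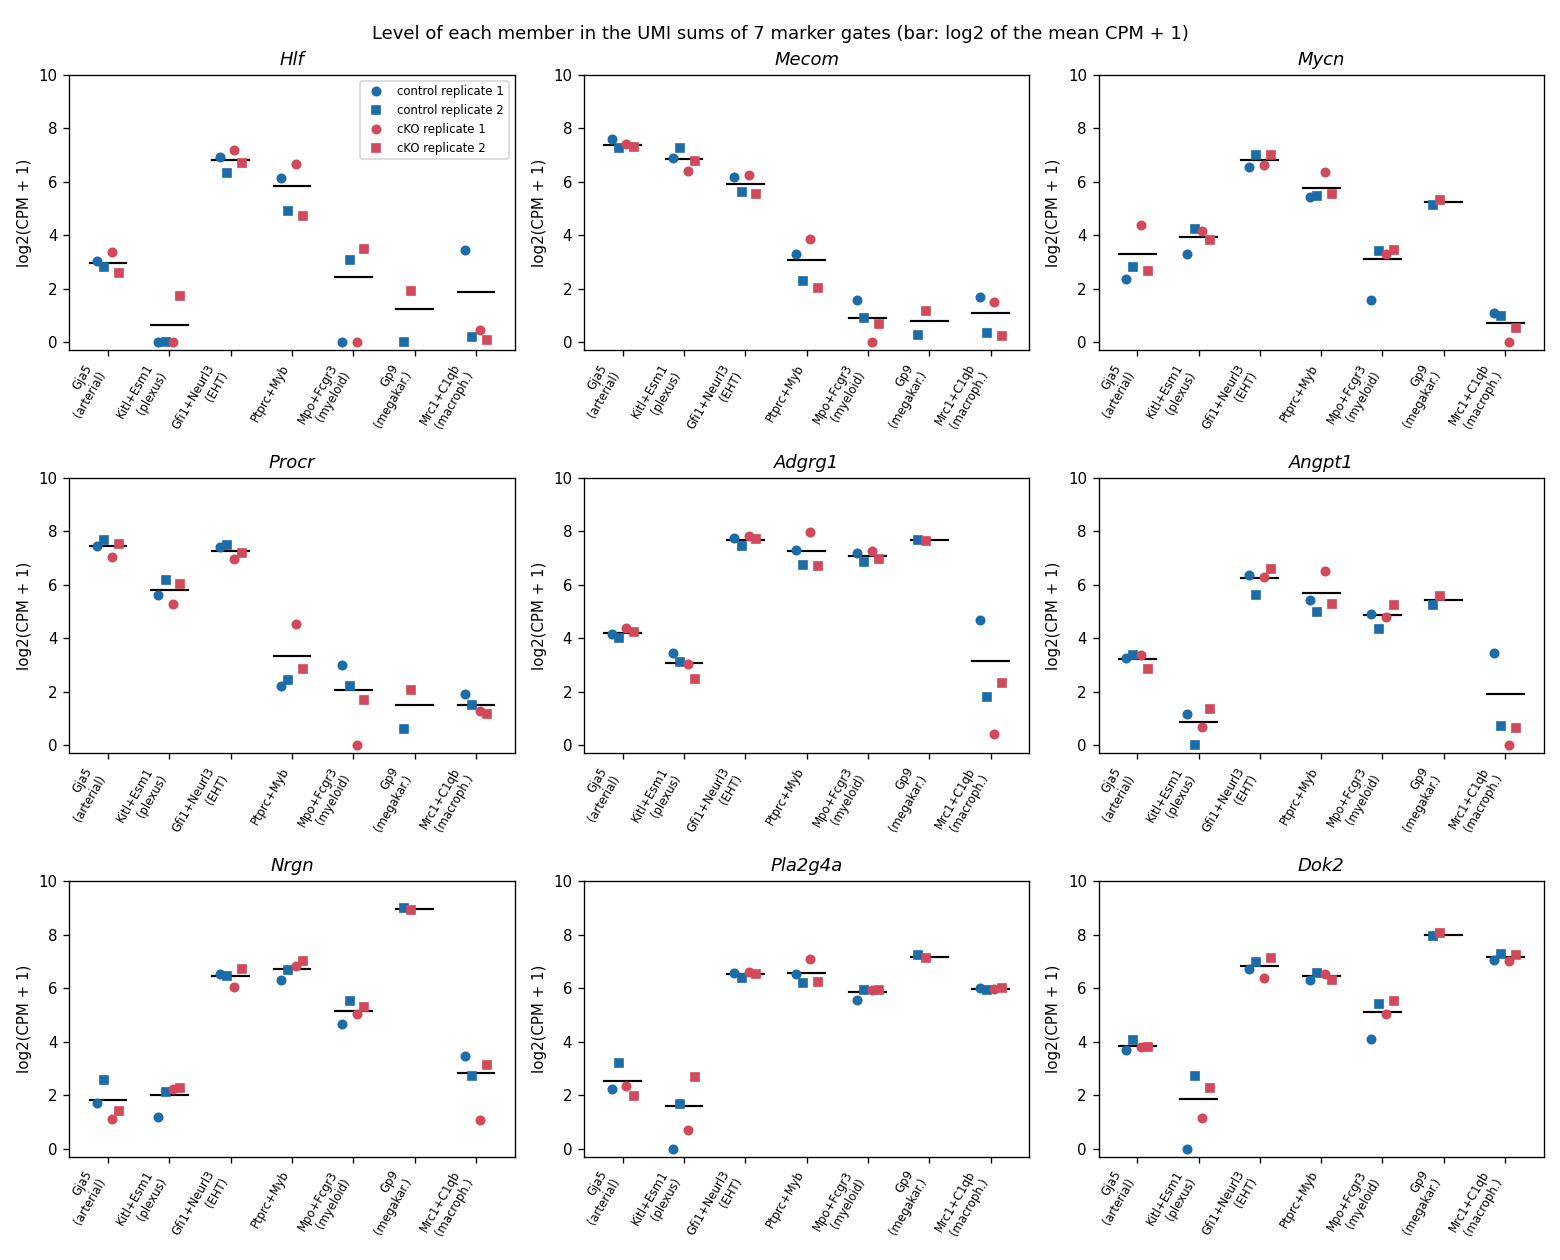
Level of each of the 9 members in the 7 marker gates, as log2(CPM + 1) on the vertical axis. Each point is the UMI sum of 1 genotype and replicate (circles replicate 1, squares replicate 2, blue control, red cKO), and the bar is the mean. Hlf stands at a mean of 112 CPM in the EHT gate and 6.86 CPM in the arterial gate, while Nrgn stands at 497 CPM in the megakaryocyte gate.

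Hlf, a PAR bZIP transcription factor used as a marker of hematopoietic stem cells and their precursors, was measured in the EHT gate at 122 and 78.4 CPM in control replicates 1 and 2 and at 143 and 104 CPM in cKO replicates 1 and 2. In the Ptprc with Myb gate the same sums were at 69.4, 28.6, 101 and 25.5 CPM. In the arterial gate they were at 7.10, 6.07, 9.32 and 4.94 CPM. All 4 EHT sums thus lay above all 4 arterial sums, by 16.3-fold in the mean, whereas the EHT and Ptprc with Myb ranges overlapped (mean 112 ± 27.4 against 56.1 ± 35.9 CPM, SD, n = 4). In both gates the replicate 1 sums lay above the replicate 2 sums in both genotypes.

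Outside these gates Hlf was low or not detected. The myeloid gate held it in the replicate 2 sums alone, at 7.42 (control) and 10.3 CPM (cKO). The plexus gate held Hlf UMIs in 1 of 4 sums, and the megakaryocyte control sum had 0 UMIs, which allows up to 0.327 CPM (3 counts, counting error only). Of the 22 Hlf UMIs in cKO megakaryocytes, 18 were in 1 cell that also held 17 Gfi1 UMIs and all 9 members. In the macrophage gate, control replicate 1 stood at 10.0 CPM and the other sums at 0.0614 to 0.359 CPM. All 18 of its UMIs were in 1 cell with 186940 UMIs, 8 of the 9 members and UMIs of both Gfi1 and Neurl3. The doublet state of these cells was not tested.

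Mycn, the N-Myc transcription factor, which drives growth and ribosome genes, was at 93.0 and 127 CPM in control and at 98.0 and 128 CPM in cKO EHT sums. Its mean of 112 ± 18.6 CPM was 2.10-fold that of the Ptprc with Myb gate, and the ranges of these gates did not overlap. This fold was 2.86 without replicate 1, 1.55 without replicate 2 and 1.41 with marker minimums 1 UMI higher. Megakaryocytes held Mycn at 34.3 (control) and 39.0 CPM (cKO), where Hlf was near 0. Mycn and Hlf therefore parted in megakaryocytes. In the arterial gate 3 sums were at 4.11 to 6.07 CPM and cKO replicate 1 was at 19.8 CPM, where 13 of its 34 UMIs were in 1 cell.

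Procr, the endothelial protein C receptor (CD201) that is used to sort hemogenic endothelium and stem cells, was at 173 and 205 CPM in control and at 130 and 183 CPM in cKO arterial sums. In the EHT gate it was at 171 and 177 CPM in control and at 125 and 147 CPM in cKO. The ranges of these gates overlapped. The plexus gate had a mean of 55.5 CPM, and the Ptprc with Myb gate 9.20 CPM, so that Procr was 16.9-fold higher in EHT than in Ptprc with Myb cells. That fold was 30.3 without replicate 1, 11.3 without replicate 2 and 7.65 with marker minimums 1 UMI higher.

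Mecom encodes the zinc finger factor Evi1, needed for stem cell maintenance and also made by endothelial cells. It was the only member whose 4 EHT sums (70.7, 48.3, 74.5 and 45.2 CPM) lay below all arterial sums (192, 152, 167 and 157 CPM). The plexus gate was also above the EHT gate, at 84.6 to 154 CPM, and 70 of its 110 cells also met the arterial gate. Mecom was 8.16-fold lower in the Ptprc with Myb than in the EHT gate (13.3-fold without replicate 1 and 5.27-fold with marker minimums 1 UMI higher) and was at or below 2.23 CPM in every myeloid, megakaryocyte and macrophage sum.

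Adgrg1 (GPR56, an adhesion G protein-coupled receptor of stem cells) and Angpt1 (the secreted ligand of the receptor Tie2) formed another pattern. Adgrg1 stood at 215 and 172 CPM in control and 226 and 212 CPM in cKO EHT sums. Megakaryocytes held it at 204 and 201 CPM, and Ptprc with Myb cells at 104 to 251 CPM, all overlapping the EHT range. The myeloid gate, at 114 to 155 CPM, was lower, and the arterial gate was at 15.4 to 19.8 CPM. Angpt1 was at 82.5 and 48.6 CPM in control and at 77.5 and 96.9 CPM in cKO EHT sums. Its means then stepped down through the Ptprc with Myb (50.7), megakaryocyte (42.3), myeloid (28.0) and arterial gates (8.35 CPM).

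Nrgn, Pla2g4a and Dok2 were higher in megakaryocytes than in EHT cells. Nrgn, the calmodulin-binding protein neurogranin, was at 512 and 481 CPM in control and cKO megakaryocytes and at 91.3, 86.8, 65.0 and 104 CPM in the EHT gate. Pla2g4a, the cytosolic phospholipase that releases arachidonic acid, was at 149 and 139 CPM in megakaryocytes, 81.2 to 95.3 CPM in the EHT gate and 59.7 to 64.0 CPM in macrophages. Dok2, an adaptor that restrains Ras signaling in blood cells, was at 246 and 265 CPM in megakaryocytes, and its macrophage range (129 to 153 CPM) overlapped the EHT range (82.4 to 140 CPM). In the arterial gate the 3 genes were between 1.17 and 15.8 CPM in every sum.

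Against the arterial gate, the EHT sums lay above without overlap for 7 of the 9 members, where 17.4% of 11822 genes with a mean of at least 1 CPM did so, and below for 1 (Mecom, 24.3%). Against the plexus gate it was 8 above (18.8%) and 1 below (Mecom, 19%), and against the macrophage gate 8 above (29.2%) and 0 below (16.1%). Against the myeloid gate 9 of 9 lay above (25.7% of all genes) and 0 below (11.5%), and against the Ptprc with Myb gate 3 of 9 above (Mecom, Mycn and Procr, 13.8% of all genes) and 0 below (5.45%). Against the megakaryocyte gate 5 of 9 lay above (44.6% of all genes) and 3 of 9 below (22% of all genes). The members had been chosen for such differences, so nothing is read from these counts.

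Cells were next set in an order given by their markers. It began with cells kept in the Gja5 gate (366 cells), which met no later gate in the order of assignment. EHT cells that still met the Gja5 gate (63 cells) came next. Then came those with neither the Gja5 nor the Ptprc with Myb gate (89 cells) and those with Ptprc and Myb (82 cells). The last were cells kept in the Ptprc with Myb gate (97 cells), which met no later gate either, and myeloid cells (154 cells). These steps are gates, and not meeting a gate is not absence of its markers, since 58.8% of the 97 Ptprc with Myb cells and 23.2% of the 366 Gja5 cells held a Neurl3 UMI, and 34.8% of the 89 EHT cells with neither gate held a Gja5 UMI. Gja5 itself was at 1080 CPM in the first of these steps and at 430, 13.7, 5.51 and 3.16 CPM in those up to the Ptprc with Myb cells. Gja5 was used in the split, so its fall from 430 to 13.7 CPM largely follows from the rule. The smallest sum in this order held 11 cells. The order is one of markers, not of measured time or of descent. The paper set aside its cluster high in Mpo and Fcgr3 as not directly relevant to EHT. Whether the myeloid cells here came from EHT cells was not tested.

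**Figure D2:**
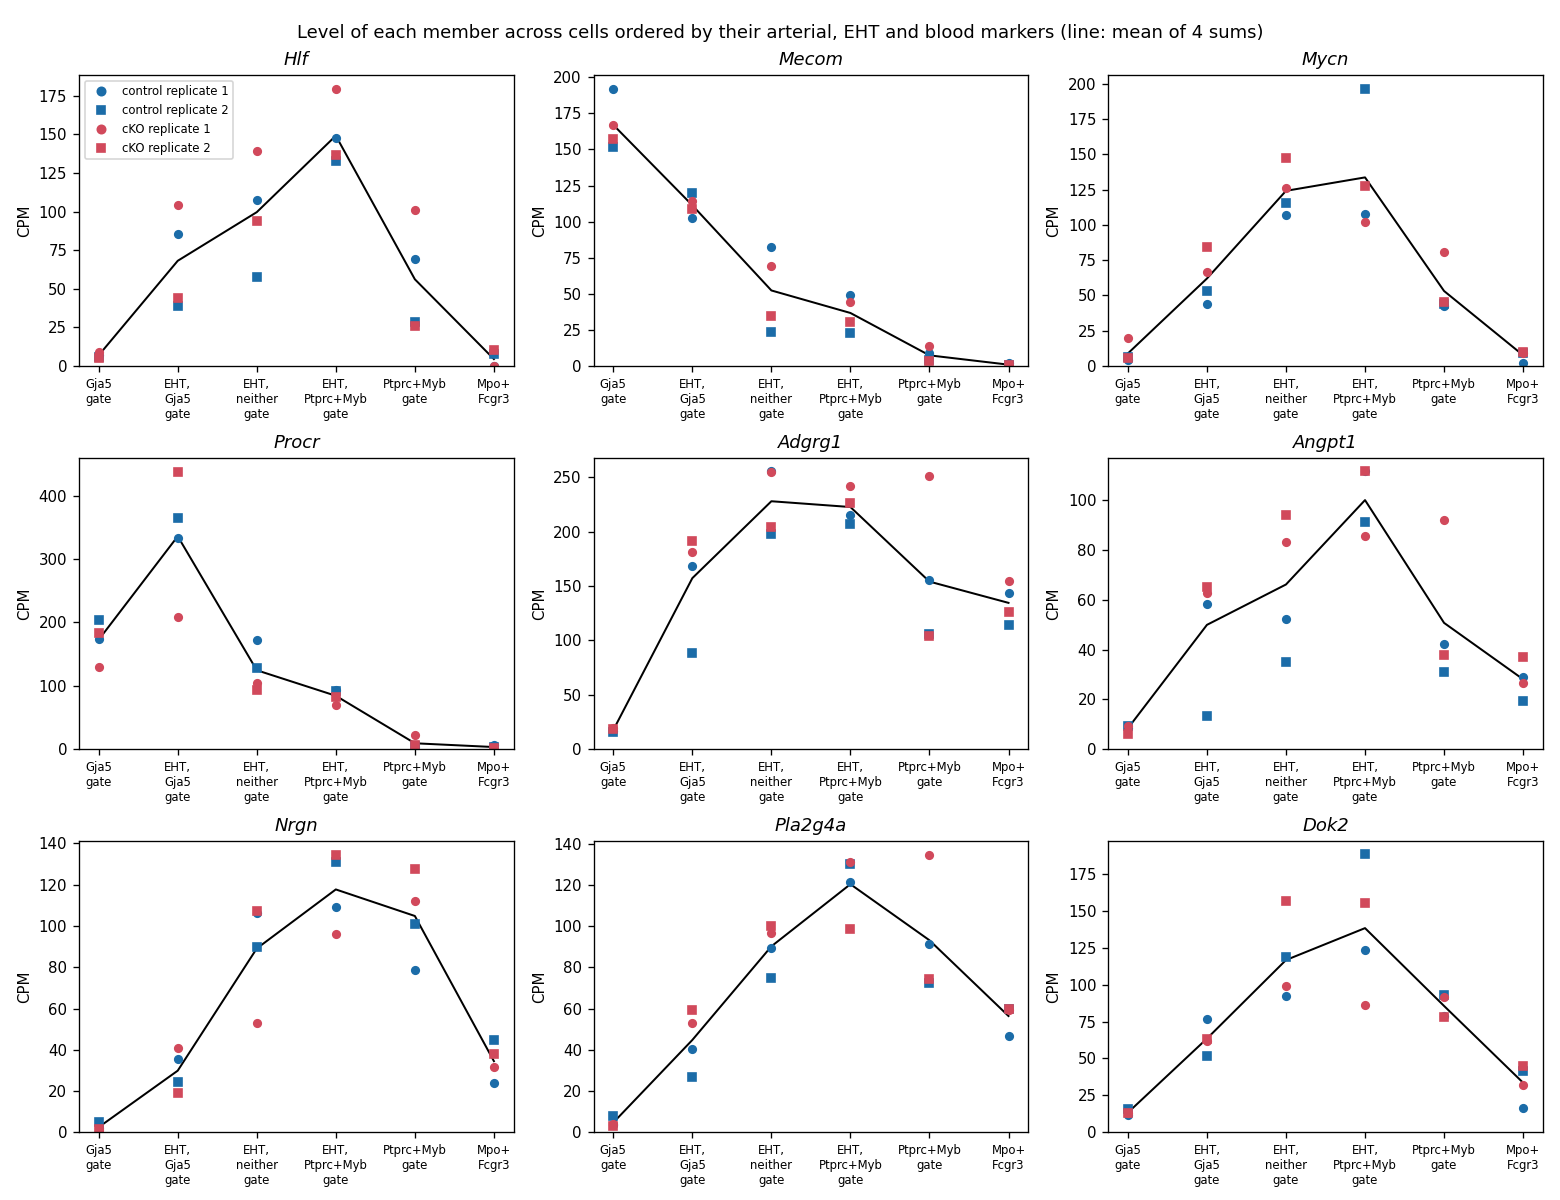
Level of each member (CPM, vertical axis from 0) across the 6 marker-defined steps from arterial to myeloid cells. Points are the 4 UMI sums per step (circles replicate 1, squares replicate 2, blue control, red cKO) and the line joins their means. Procr is highest in EHT cells with Gja5 (mean 336 CPM), and Hlf in EHT cells with Ptprc and Myb (mean 149 CPM).

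Hlf was already present in EHT cells that kept Gja5, at 85.2, 38.7, 105 and 44.0 CPM. Their mean was 9.93-fold that of cells kept in the Gja5 gate. It stood at a mean of 99.6 CPM in EHT cells with neither gate. EHT cells with Ptprc and Myb held the most, at 147, 133, 180 and 137 CPM. The ranges of neighbouring EHT steps overlapped, but all 4 sums of the last step lay above all 4 of the Gja5-positive step. In cells kept in the Ptprc with Myb gate the mean was 2.66-fold lower, without overlap (4.98-fold without replicate 1 and 1.92-fold without replicate 2).

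Procr had the opposite order within the EHT gate. It was highest in EHT cells with Gja5, at 334, 365, 208 and 438 CPM, where 100% of the 63 cells held a UMI, and this was above every arterial sum. The following steps were at means of 125 and 84.2 CPM, each without overlap with the step before. Mecom means were lower at every step, from 167 CPM in arterial cells to 111, 52.3, 36.7, 7.31 and 0.853 CPM. The ranges overlapped only between the EHT cells with neither gate and those with Ptprc and Myb.

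The remaining members were higher in EHT cells with Gja5 than in Gja5 cells, Mycn at a mean of 61.9 CPM, Adgrg1 at 157 CPM, Angpt1 at 49.9 CPM, Nrgn at 29.9 CPM, Pla2g4a at 44.8 CPM and Dok2 at 63.5 CPM. From Gja5 cells to EHT cells with Gja5, 8 of 9 members were higher without overlap (8.35% of 11708 genes) and 1, Mecom, was lower (12% of genes). At the next step 5 were higher (3.63%) and 2, Mecom and Procr, lower (8.66%), and within EHT cells on to those with Ptprc and Myb 0 were higher (1.4%) and 1, Procr, lower (1.53%). From EHT cells with Ptprc and Myb to cells kept in the Ptprc with Myb gate, 4 of 9 members were lower without overlap. These were Hlf, Mecom, Mycn and Procr (6.96% of 11342 genes were lower), and 0 were higher (3.33%). Adgrg1, Nrgn and Pla2g4a kept overlapping ranges there, at means of 222 and 154 CPM, 118 and 105 CPM, and 120 and 93.1 CPM. So did Angpt1, at means of 100 and 50.7 CPM, and Dok2, at 138 and 85.6 CPM. The 4 genes lower without overlap are the 3 transcription factors and the protein C receptor. From there to myeloid cells 6 were lower (7.35%) and 0 higher (4.95%). As above, these counts are descriptions.

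In single EHT cells most members were found together. The median EHT cell held UMIs of 8 of the 9, and 110 of 234 cells (47.0%) held all 9. At least 7 were held by 195 EHT cells (83.3%), by 47 of 97 Ptprc with Myb cells (48.5%) and by 5 of 366 arterial cells (1.37%). The 3 genes Hlf, Mecom and Procr occurred together in 161 of 234 EHT cells (68.8%, exact binomial 95% interval 62.4 to 74.7%), 29 of 366 arterial cells (7.92%, 5.37 to 11.2%) and 8 of 97 Ptprc with Myb cells (8.25%, 3.63 to 15.6%). They occurred together in 0 of 552 macrophages. All such intervals cover counting error only, since cells of a pool are not independent embryos. Of the 219 cells with these 3 genes among all 2139, 17 were in no gate. Counts of members found together depend on depth, were taken at full depth and were not thinned. The median cell held 23785 UMIs in the arterial, 54044 in the EHT and 68188 in the Ptprc with Myb gate.

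**Figure D3:**
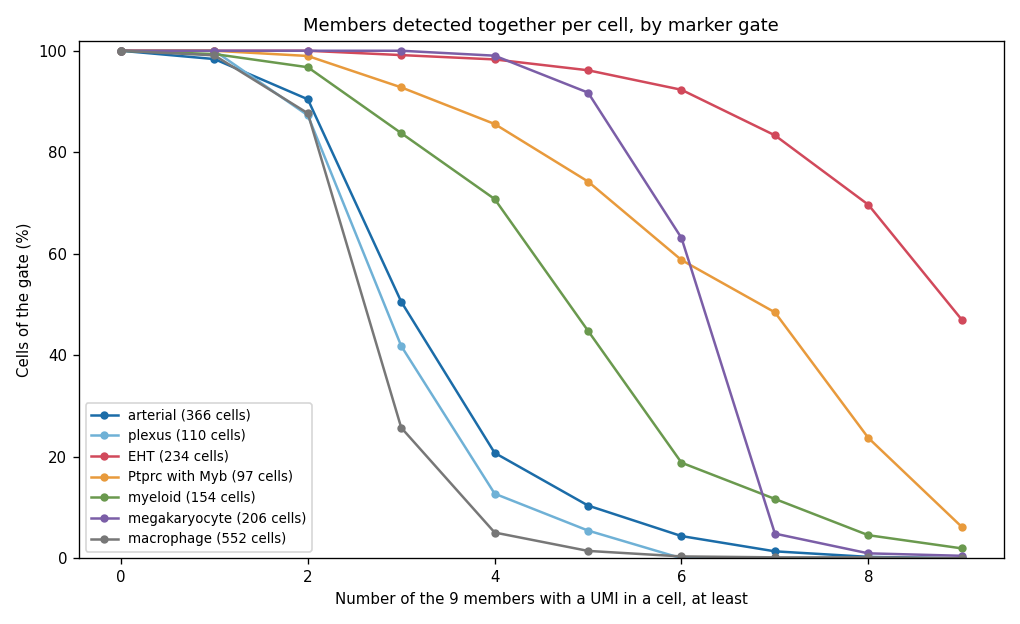
Share of the cells of each gate (%, vertical axis) that held a UMI of at least the number of members on the horizontal axis, with 1 line per gate. Cells are at full depth, which differs between gates. The EHT line stays highest at 7 members and above, at 83.3% for 7 and 47.0% for all 9, while the megakaryocyte line drops from 63.1% at 6 to 4.85% at 7.

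Shares of cells with a UMI depend on depth, so each cell with at least 6000 UMIs was also thinned to 6000 UMIs. Within the gates this left out 7 arterial cells and 1 Ptprc with Myb cell. Hlf was found in 88.5% of EHT cells at full depth and in an expected 42.1% after thinning, against 0.906% and 0.146% of macrophages, a cell type that should lack Hlf and whose median depth (60868.5 UMIs) was above that of EHT cells (54044 UMIs). Mecom was found after thinning in 58.2% of arterial and 30.6% of EHT cells. Procr was found in 60.9% of arterial and 51.5% of EHT cells. Pla2g4a and Dok2 were found in 28.2% and 52.7% of thinned macrophages, beside 36.9% and 42.2% of thinned EHT cells. At full depth all 9 members were in over 50% of EHT cells, and after thinning 2 were (Procr and Adgrg1).

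**Figure D4:**
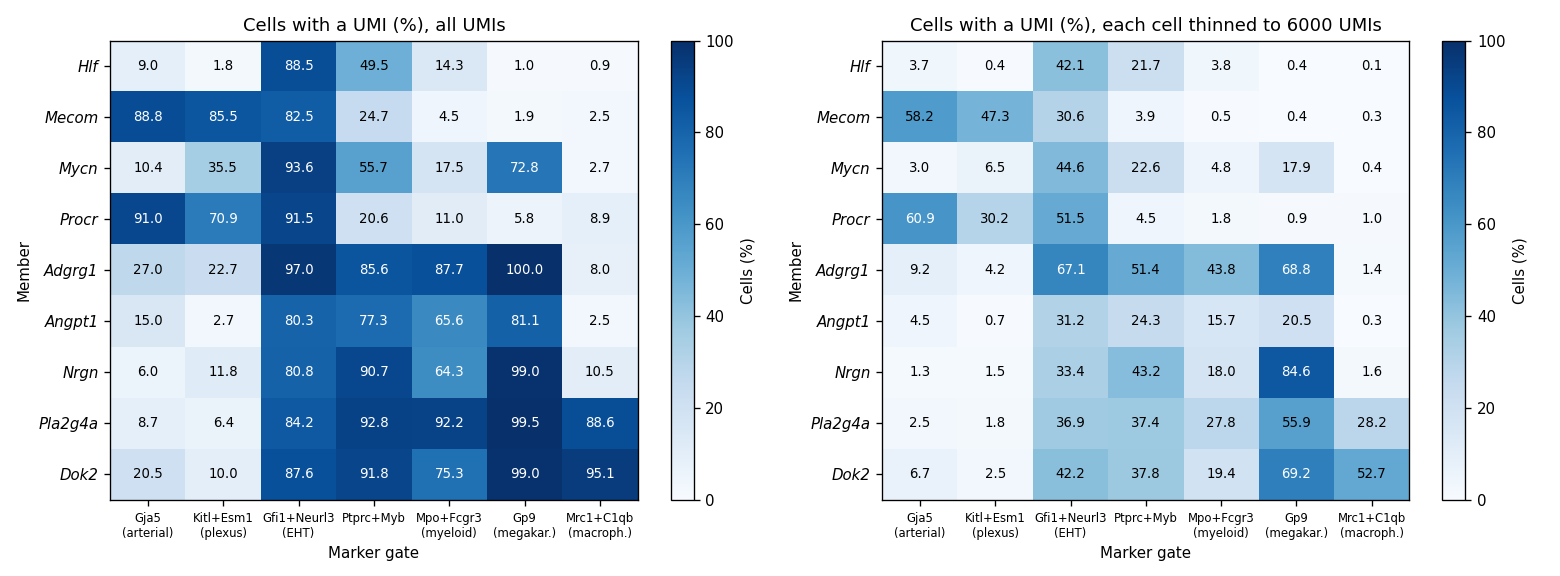
Share of cells with a UMI of each member (%, colour from 0 to 100) in each gate, at full depth on the left and after thinning to 6000 UMIs on the right, with cells under 6000 UMIs left out. Thinning lowers every EHT share, from 88.5% to 42.1% for Hlf. The Hlf share remains higher in the EHT gate than in any other gate.

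Across the 234 EHT cells, log2(CPM + 1) values centred within each replicate gave Pearson's r from -0.44 to 0.55 over the 36 pairs of members, with 14 pairs below 0. All 14 contained Mecom or Procr. The pair Mecom and Procr gave r = 0.40, Hlf and Mycn 0.44, Hlf and Procr -0.21, and Nrgn and Pla2g4a 0.55. Hlf gave 0.61 with Myb and -0.39 with Gja5, and Procr gave -0.41 and 0.55. The values of a cell share its depth, and these correlations are descriptions over cells of 4 sums.

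Over the 26 sums of all gates, which share libraries and depth, Mecom and Procr gave r = 0.95 in log2(CPM + 1), Adgrg1 and Angpt1 0.96, and Pla2g4a and Dok2 0.93. Among 7666 genes with a mean of at least 10 CPM, the 3 most like Hlf were Sfrp2 (0.90), Lmo1 (0.87) and Ccnd2 (0.86), and those most like Mycn were Sumo3 (0.91), Yeats4 (0.89) and 5430416N02Rik (0.87). Mecom was most like Cdh5 (VE-cadherin), Tjp1 and Chd3 (0.99 each), and Procr most like Cpxm1 (0.97), 5930403L14Rik (0.96) and Pam (0.96). Adgrg1 and Angpt1 were each among the 3 most like the other, with Stard10 (0.95 and 0.96) in both lists, Cox6b2 (0.93) in that of Adgrg1 and Meis1 (0.94) in that of Angpt1. Il12a (0.96) and Gfi1b (0.95) were among those most like Nrgn, and Pla2g4a was most like Lgals9 (0.97), Was (0.97) and Treml2 (0.96). Dok2 was most like Pla2g4a (0.93), Akr1b10 (0.91) and Dtnbp1 (0.91).

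Relatives and partners of the members were examined by gate. The PAR bZIP relatives of Hlf, Dbp and Tef, had means of 5.14 and 3.64 CPM in the EHT gate, and Myc, the relative of Mycn, was highest in the Ptprc with Myb gate (69.1 CPM, against 29.1 CPM in the EHT gate). The Mecom relative Prdm16 was highest in the arterial gate (30.8 CPM), as were the Angpt1 receptor gene Tek (202 CPM, against 46.5 CPM in the EHT gate) and its relative Tie1 (307 CPM), so the ligand Angpt1 and its receptor had different leading gates. For Procr, the ligand gene Proc had 0 UMIs in all gates, and the receptor gene F2r was at 406 CPM in megakaryocytes and 214 CPM in the arterial gate. Of 6 genes of the arachidonate pathway, 2, Alox5 (47.4 CPM) and Ptgs1 (147 CPM), were highest in megakaryocytes, as was Pla2g4a. Of the others, Ltc4s (56.4 CPM) and Ptgs2 (10.0 CPM) were highest in macrophages, Alox5ap (232 CPM) in the myeloid gate and Ptges3 (596 CPM) in the Ptprc with Myb gate. Of 23 further regulators of blood stem cells, 6 were highest in the EHT gate, 6 in the arterial gate and 5 in megakaryocytes. Hoxa9 (151 CPM in the EHT and 88.7 CPM in the Ptprc with Myb gate), Hmga2 (729 and 486 CPM) and Bcl11a (104 and 87.2 CPM) were among the 6 in the EHT gate.

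Whether loss of Nupr1 changed the 9 genes was tested next. Nupr1 itself was at 36.9 and 27.3 CPM in control and at 1.96 and 3.23 CPM in cKO EHT sums (replicates 1 and 2), so the target followed the genotype labels. It fell by 3.62 on the log2 scale (SE 0.42, adjusted p = 0.0063, edgeR quasi-likelihood test, n = 2 against 2). With cells of several gates left out it was not called (-3.30, adjusted p = 0.062), nor in 1 fit over all gates (-3.62, adjusted p = 1, edgeR). It was the only gene called among 10104 tested in the EHT gate (0.0099% called, with 122 genes at an unadjusted p under 0.05). DESeq2 called 2 genes (0.0131%). Each replicate pools both genotypes, and with the replicate as a block edgeR called 6 genes (0.0594%). The labels do not tie sums to embryos, so p-values measure only the spread between these sums, which may be technical.

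None of the 9 members was called in the EHT gate by edgeR, with or without the block, or by DESeq2. The log2 differences of cKO from control were 0.44 (95% interval -0.20 to 1.08) for Angpt1, 0.33 (-0.27 to 0.92) for Hlf, 0.20 (-0.31 to 0.71) for Adgrg1, 0.13 (-0.41 to 0.67) for Pla2g4a, 0.07 (-0.51 to 0.66) for Mycn and 0.03 (-0.61 to 0.67) for Mecom. They were 0.00 (-0.64 to 0.63) for Dok2, -0.04 (-0.66 to 0.58) for Nrgn and -0.33 (-0.85 to 0.20) for Procr. Every adjusted p was 0.999963 (edgeR quasi-likelihood test with Benjamini-Hochberg adjustment), and 0 of 9 had an unadjusted p under 0.05. The median was 0.07, beside 0.01 over all genes tested. These intervals come from the fit without the replicate block, which did not tell the differences apart from 0 with 2 sums per genotype. They are no limit of what the paired design could detect. With the block, 399 of the 10104 genes had an unadjusted p under 0.05 (edgeR), and intervals from that fit are not given here.

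**Figure D5:**
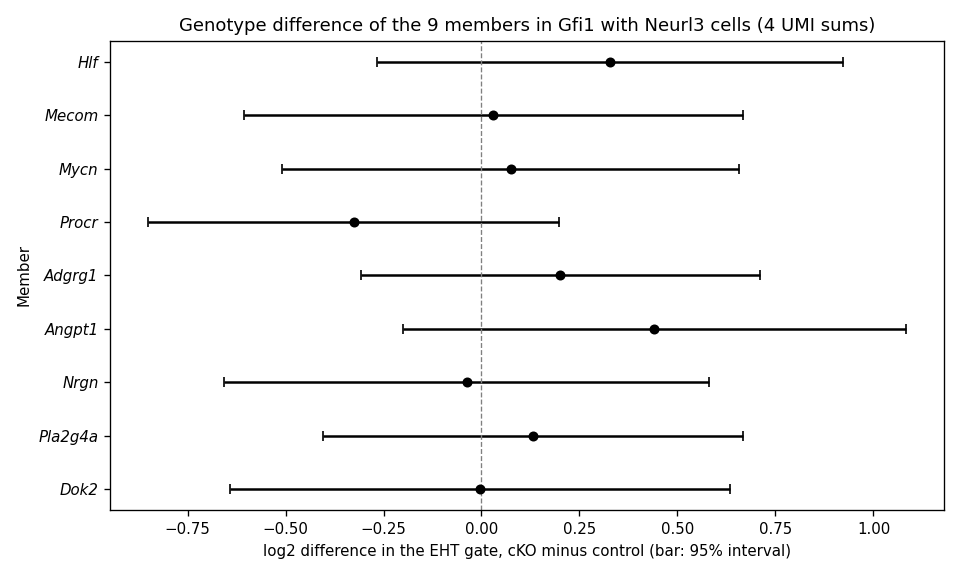
Log2 difference of each member between cKO and control in the EHT gate (horizontal axis). It was estimated by edgeR from 4 UMI sums without the replicate block, with bars for the 95% interval. All 9 intervals contain 0, and the estimates run from -0.33 (Procr) to 0.44 (Angpt1).

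For Procr both cKO sums (125 and 147 CPM) lay below both control sums (171 and 177 CPM) without overlap, as for 12.3% of 11607 genes, and 0 members lay above (7.59% of genes). For Hlf the control sums (122 and 78.4 CPM) and cKO sums (143 and 104 CPM) overlapped, but within each replicate the cKO sum was the higher. The cKO sum was also higher in both replicates for Mycn (by 5.05 and 1.29 CPM), Adgrg1 and Pla2g4a, and lower in both for Procr. It was mixed for Mecom, Angpt1, Nrgn and Dok2, and the blocked test called no member. The share of all genes with such a direction was not computed, so nothing is read from these directions. For Hlf, replicate 1 lay above replicate 2 in both genotypes. In the EHT gate 4 members (Hlf, Mecom, Adgrg1 and Pla2g4a) were higher in replicate 1 without overlap and 2 (Mycn and Dok2) lower, where 32.6% and 25.7% of 11607 genes were. In the Ptprc with Myb gate 5 were higher in replicate 1 (35.7% of 11147 genes) and 0 lower (22.7%).

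The same test called 0 members in the other gates. It had 7 members to test in the arterial gate (0% of 9902 genes called), 3 in the plexus gate (0% of 7995), 8 in the Ptprc with Myb gate (0% of 8278), 8 in the myeloid gate (0.0215% of 9319) and 6 in the macrophage gate (0% of 10499). At an unadjusted p under 0.05 those gates had 118, 162, 44, 68 and 27 genes, none of them a member, and DESeq2 called 0, 1 (0.00726%), 0, 3 (0.0212%) and 0 genes. With the replicate as a block edgeR called 42 (0.424%), 1 (0.0125%), 1 (0.0121%), 1 (0.0107%) and 8 genes (0.0762%), again none of them a member. The members' log2 differences ran from -0.26 (Procr) to 1.24 (Mycn) in the arterial gate, from -0.48 (Mecom) to 0.20 (Mycn) in the plexus gate and from -0.03 (Dok2) to 0.76 (Angpt1) in the Ptprc with Myb gate. They ran from -1.59 (Procr) to 0.47 (Mycn) in the myeloid gate and from -1.88 (Adgrg1) to 0.03 (Pla2g4a) in the macrophage gate. In the megakaryocyte gate, with 1 sum per genotype, no test was possible.

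The difference between the genotype effects in the EHT gate and in each other gate was also tested, in 45 comparisons of member and gate, and 0 passed (smallest adjusted p = 0.999946, edgeR). Of the 69 relatives, partners and stem cell regulators, 61 were tested in the EHT gate and 0 were called, with a median log2 difference of 0.05.

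Genotype and embryo sex moved together in these pools. In the EHT gate, 95.1% and 100% of control cells in replicates 1 and 2 held Xist and no chromosome Y transcript, against 0% and 54.9% of cKO cells. The part of embryo sex in the differences above was not tested. The share of EHT cells that met the Gja5 gate was 21.3% and 32% in control and 31.9% and 21.6% in cKO.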

How the data were processed

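Single-cell RNA was measured in CD31+CD44+ cells of 2 pools, each holding control and cKO cells. The authors aligned reads with Cell Ranger 5.0.1 to mm10 and deposited counts of UMIs per gene and cell, with hashtag calls from HTODemux in Seurat that kept singlets. No doublet caller was run here. The 101 cells outside the study's stated limits (1800 genes, 6000 UMIs, 5% mitochondrial UMIs) were kept, and all 101 were in replicate 1. The members, gene lists and gates were chosen with earlier results of these data known. The gate minimums and their order, the macrophage gate and the split of EHT cells by Ptprc with Myb were set after marker counts had been seen.

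Cells met a gate with at least 5 Gja5 UMIs, 1 each of Kitl and Esm1, 1 each of Ptprc and Myb, 1 each of Gfi1 and Neurl3, 5 each of Mpo and Fcgr3, 10 of Gp9, or 1 of Mrc1 with 10 of C1qb. Cells with 10 C1qb UMIs and no Mrc1 were left out of every gate. A cell that met several gates went to the later in the order arterial, plexus, Ptprc with Myb, EHT, myeloid, megakaryocyte, macrophage. UMIs were summed per gate, genotype and replicate (at least 10 cells). Sums were tested per gate with edgeR 4.0.16 (filterByExpr, TMM, robust quasi-likelihood test, Benjamini-Hochberg threshold 0.05, R 4.3.3), without a block, and DESeq2 1.42.0 was an alternative. Cells were not used as replicates, so no test over cells was run. The study states that both genotypes shared a pool, so replicate numbers pair the sums. Deviations of same-numbered sums from their group means gave r from 0.23 (myeloid) to 0.47 (macrophage) across genes. Likeness to a member was Pearson's r of log2(CPM + 1) over 26 sums, and the 3 genes with the highest r were named, except 1 that is not reported here. The test steps were checked on simulated data. Other alternatives were RLE normalization, no filter on low counts, each sum left out, minimums 1 UMI higher, cells within the stated limits, cells of several gates left out and 1 fit over all gates. Leaving out a replicate for folds between steps of the marker order was added after seeing the data.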

Additional observations from a re-analysis of the deposited data

Results flagged for a closer look

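Of 54 groups of 4 sums (9 members in 6 gates), 9 held 1 sum far from the others, judged by its gap to the nearest sum as a share of the whole range (Dixon's ratio at the 95% level). This level means about 1 of 20 groups by chance for 4 independent normal values. Some of these groups hold few UMIs, so the count of 9 is not set against that rate. In the macrophage gate, control replicate 1 stood apart for Hlf (gap 0.97 of the range), Angpt1 (0.937) and Adgrg1 (0.847). It held these genes at 10.0, 10.0 and 24.5 CPM, and without the cell richest in each gene at 0, 3.73 and 11.8 CPM. In each case the richest cell had 186940 UMIs and 8 of the 9 members.

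For Mycn, cKO replicate 1 stood apart in the arterial gate (0.876), at 19.8 CPM and at 12.6 CPM without its richest cell, and in the Ptprc with Myb gate (0.917), at 80.7 and 70.1 CPM. Procr in cKO replicate 1 of the Ptprc with Myb gate (0.864) was at 22.4 CPM against 3.65 to 6.21 CPM in the other sums. In the myeloid gate, control replicate 1 was lowest for Mycn (0.877, 1.94 CPM from 3 UMIs) and Pla2g4a (0.977, 46.7 CPM). Hlf in the plexus gate had UMIs in cKO replicate 2 alone (gap 1), with 3 UMIs in 2 cells. Leaving out the richest cell was chosen after seeing the data, and the part of single cells or doublets in these values was not tested.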

How the results depend on the processing

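Counts of genes called between genotypes were small and moved with the settings. Without a filter on low counts they were 30 in the EHT, 9 in the arterial, 40 in the plexus, 8 in the Ptprc with Myb, 12 in the myeloid and 8 in the macrophage gate. With the replicate block they were 6, 42, 1, 1, 1 and 8 in that order. DESeq2 gave 2 in the EHT, 1 in the plexus, 3 in the myeloid and 0 in the other gates. Leaving out 1 sum gave 3 to 84 in the EHT, 1 to 19 in the arterial, 1 to 11 in the plexus, 3 to 55 in the Ptprc with Myb, 10 to 34 in the myeloid and 8 to 27 in the macrophage gate, where the lone sum of a genotype is assumed to vary like the pair. In the EHT gate 0 were called with cells of several gates left out and 0 in 1 fit over all gates. In the myeloid gate it was 0 in 1 fit over all gates, 1 with cells within the stated limits and 1 with minimums 1 UMI higher.

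For the members, 2 of 470 alternative fits of 41 log2 differences passed the threshold. They were Mycn in the arterial gate without cKO replicate 2 (1.95, adjusted p = 0.034) and Adgrg1 in the macrophage gate without control replicate 2 (-2.97, adjusted p = 8.1e-06, edgeR). Hlf (-6.15) and Angpt1 (-4.36), too low for the macrophage test otherwise, were also called without control replicate 2, where control replicate 1, with the 1 cell rich in these genes, was the lone control sum. The block called no member. The sign changed in 55 fits, none of them called. In the EHT gate Dok2 was 0.0070 with DESeq2, 0.0098 without a filter, 0.046 with minimums 1 UMI higher and 0.31 without cells of several gates, and minimums 1 UMI higher gave -0.21 for Mecom and 0.10 for Nrgn. Minimums 1 UMI higher gave -0.34 for Mycn in the myeloid gate, and leaving out cells of several gates gave -0.068 for Pla2g4a in macrophages. Leaving out 1 sum gave, in the EHT gate, Dok2 -0.48 to 0.37, Mecom -0.32 to 0.35, Mycn -0.17 to 0.32 and Nrgn -0.46 to 0.31, and elsewhere Adgrg1 -4.86 to 0.14 in the macrophage gate, Pla2g4a -0.039 to 0.095 in the macrophage gate, Mycn -0.035 to 2.24 in the myeloid gate, Mycn -0.20 to 0.78 in the plexus gate and Dok2 -0.19 to 0.13 in the Ptprc with Myb gate. The fall of Nupr1 had an adjusted p of 0.062 with cells of several gates left out and 1 in 1 fit over all gates, and passed otherwise. Thinning left 2 of 9 members in over 50% of EHT cells. By mean CPM per cell Procr was highest in the EHT gate (185 CPM) and Adgrg1 in megakaryocytes, and without cells of several gates Procr was at 125 CPM in the EHT gate. Without replicate 1 Adgrg1 was highest in megakaryocytes, and without replicate 2, where no megakaryocyte sum remains, Nrgn and Pla2g4a were highest in the Ptprc with Myb and Dok2 in the macrophage gate. The genotype test was not run for the megakaryocyte gate under any setting, nor for the plexus and myeloid gates with cells of several gates left out, since too few sums of 10 cells remained. The cause of these changes was not tested. With 2 sums per genotype, small differences could not be detected.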
